A study of Homo sapiens with 12 samples.

Results

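MEIS1, MEIS2, MEIS3, PBX2, PBX3, PBX4, HOXA7, HOXA9 and HOXA10 are 9 homeobox genes that are known from acute leukemia. They were taken from the count table by gene symbol, and all 9 were found among its 58288 genes. HL-60/S4 is a human cell line from an acute promyelocytic leukemia. The study grew it as undifferentiated promyelocytes or differentiated it into granulocytes with 1 µM all-trans retinoic acid for 4 days, and then gave either cell type 16 ng/ml TNF-α, an inflammatory cytokine, or the water vehicle for 2 hours. All cells were at passage 8 and were kept in calcium-supplemented medium, the vehicle cultures included. Each of the 4 groups had 3 flasks of this 1 line, each sequenced as its own ribosomal RNA-depleted, stranded library, so p-values measure the spread between flasks and not between donors. The promyelocyte and granulocyte experiments were run independently, and cell type and experiment cannot be told apart where the cell types are set side by side.

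MEIS, PBX and HOX proteins bind DNA together. MEIS and PBX are cofactors of the TALE class, named for an extra loop in the homeodomain, and they give HOX proteins longer and more selective binding sites. In blood, HOXA9, HOXA10 and MEIS1 are active in stem and progenitor cells, are switched off as myeloid cells mature, and stay on in leukemias with rearranged KMT2A, where menin and DOT1L maintain them.

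The 12 libraries held 22829189 to 31895061 assigned read pairs, so 3 read pairs in a library, taken here as the floor of detection, corresponded to between 0.0946 and 0.136 normalized read counts (read pairs scaled to library size by TMM, as CPM). Such floors cover counting error only. The labels were checked against markers. The summed level of 6 azurophil granule genes of promyelocytes was 7521 to 8364 CPM in vehicle promyelocytes and 2253 to 2459 in vehicle granulocytes, that of 7 granulocytic genes 152 to 160 and 3820 to 3977. All 6 TNF-response genes rose in both cell types. Of the 7 macrophage markers, CSF1R carried nearly all of a summed level that was 49.1 to 51.4 CPM in vehicle granulocytes and 30.3 to 34.0 with TNF-α, against 2.96 to 4.80 in promyelocytes; MARCO was at 0 in all libraries, and CD14 had no more than 12 read pairs in any. With TNF-α the azurophil sum was 6261 to 7143 CPM in promyelocytes, with 3 of the 6 genes called lower, and 2248 to 2457 in granulocytes. The granulocytic sum was 243 to 262 CPM in promyelocytes and 3772 to 3863 in granulocytes. CYBB carried the rise in promyelocytes (113 to 216 CPM on average). Of the 7 granulocytic genes, 1 was called higher and 1 lower there, and 2 higher and 3 lower in granulocytes. The part of these shifts in the members' results was not tested, and in bulk RNA fewer cells of a type and less RNA per cell cannot be told apart.

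The members fell into 3 well-expressed genes, MEIS2, PBX2 and PBX3, and 6 with no more than 25 read pairs in any library. Per kilobase of exon, PBX2 was the highest in every group, from 13.7 ± 0.384 RPKM (SD, n = 3) in vehicle promyelocytes to 24.4 ± 1.56 in TNF-α granulocytes. PBX3 followed with 4.55 ± 0.273 to 10.7 ± 0.738 and MEIS2 with 3.05 ± 0.134 to 4.33 ± 0.159. PBX4 and HOXA7 stayed at or under 0.275 RPKM on average, MEIS1 and MEIS3 under 0.033, HOXA10 had 2 read pairs in all, and HOXA9 had none. MEIS1, HOXA9 and HOXA10, the members best known as leukemia drivers, were thus among those with almost no reads in this line.

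**Figure D1:**
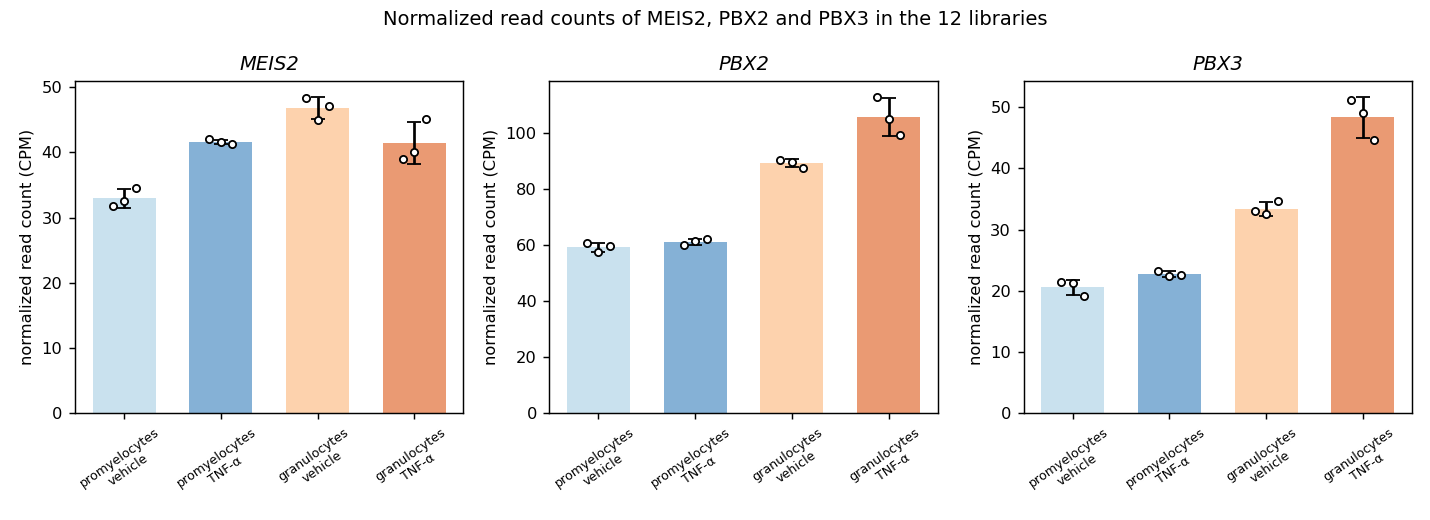
Normalized read counts (CPM, y axis from 0) of MEIS2, PBX2 and PBX3 in the 4 groups; bars are means of 3 libraries, whiskers the SD and points the libraries. MEIS2 is higher with TNF-α in promyelocytes (33.0 to 41.6 CPM) and lower in granulocytes (46.8 to 41.4), and PBX3 is highest in TNF-α granulocytes (48.3).

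MEIS2, a TALE cofactor that pairs with PBX and HOX proteins, was the only member called in promyelocytes, and it moved in opposite directions in the 2 cell types. The gene spans chr15:36889204-37101299 on the minus strand (hg38), and no other gene on that strand shares its exons. The windows around its start sites are printed here because MEIS2 was the 1 member called in both cell types in opposite directions. They run from 250 bases before to 50 after each start, come from RefSeq (GRCh38.p14), and carry in capitals any match on either strand to the NF-κB consensus, to TGACAG (a MEIS site), to TGATNNAT (a PBX-HOX site) or to AGGTCA (the retinoid receptor core).
MEIS2, first start, chr15:37099057-37099356, minus strand: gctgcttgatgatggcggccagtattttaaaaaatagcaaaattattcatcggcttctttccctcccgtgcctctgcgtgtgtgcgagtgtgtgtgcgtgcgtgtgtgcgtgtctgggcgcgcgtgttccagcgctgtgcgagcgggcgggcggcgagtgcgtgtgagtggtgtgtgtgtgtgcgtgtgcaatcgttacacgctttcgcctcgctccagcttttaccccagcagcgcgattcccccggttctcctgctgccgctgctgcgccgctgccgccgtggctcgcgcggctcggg
MEIS2, second start, chr15:37098647-37098946, minus strand: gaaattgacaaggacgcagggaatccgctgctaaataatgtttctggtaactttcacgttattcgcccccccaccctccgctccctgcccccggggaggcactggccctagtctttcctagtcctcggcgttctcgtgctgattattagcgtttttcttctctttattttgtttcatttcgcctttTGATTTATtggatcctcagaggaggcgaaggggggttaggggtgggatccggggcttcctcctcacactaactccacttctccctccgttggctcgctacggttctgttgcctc
The first window held none of these motifs and the second a single TGATNNAT. Over all 35116 promoter windows, the NF-κB consensus was found in 11.3%, TGACAG in 15.8%, TGATNNAT in 7.40% and AGGTCA in 13.8%. A match is a string of letters and not a bound site.

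In vehicle promyelocytes MEIS2 measured 31.8, 32.5 and 34.6 CPM in replicates 1 to 3, from 884 to 1002 read pairs. With TNF-α it measured 42.0, 41.5 and 41.3 CPM. All TNF-α libraries lay above all vehicle libraries, and the gap between the groups was wider than the spread within either. Groups did not overlap for 30.9% of all genes in promyelocytes. The log2 fold change was 0.36 ± 0.0667 (SE, 95% interval 0.22 to 0.50, adjusted p = 0.000707 by edgeR's quasi-likelihood test with Benjamini-Hochberg adjustment over all genes), a rise of 1.28-fold. MEIS2 was 1 of 5 members with enough reads for this test and the 1 called, where 14.8% of all 16250 genes were, 8.15% of all genes being higher and 6.65% lower.

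In vehicle granulocytes MEIS2 measured 48.3, 44.9 and 47.1 CPM. With TNF-α it measured 39.0, 40.1 and 45.1 CPM. The third TNF-α library lay just above the lowest vehicle library, so the groups overlapped, while the other two TNF-α libraries were below all vehicle libraries. The log2 fold change was −0.19 ± 0.0616 (SE, 95% interval −0.31 to −0.06, adjusted p = 0.0101 by edgeR). This call was lost without TNF-α replicate 1 (−0.15, adjusted p = 0.0632) or without TNF-α replicate 2 (−0.16, adjusted p = 0.0683, both by edgeR), and at a threshold of 0.01.

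The test of the difference itself covered all 12 libraries. The response of MEIS2 in granulocytes was lower than that in promyelocytes by 0.51 on the log2 scale (difference −0.51 ± 0.0904, SE, 95% interval −0.70 to −0.32, adjusted p = 0.000114 by edgeR), and it stayed past the threshold in all 12 fits that left out a library. MEIS2 and PBX3 were the 2 of 6 tested members whose responses differed between the cell types, where 24.0% of all 18124 genes did, 14.1% being higher in granulocytes and 9.88% lower. Being called in both cell types in opposite directions was shared by 184 of 15393 genes tested in both, or 1.20%. In order of level, MEIS2 was highest in vehicle granulocytes, TNF-α promyelocytes and TNF-α granulocytes came next with overlapping libraries (41.6 ± 0.374 and 41.4 ± 3.26 CPM, SD, n = 3), and vehicle promyelocytes were lowest.

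MEIS1, the paralog that drives leukemia together with HOXA9, was barely detected. Its read pairs were 2, 3 and 3 in vehicle promyelocytes and 0, 4 and 3 with TNF-α, at or near the floor. They were 10, 13 and 7 in vehicle granulocytes and 2, 12 and 3 with TNF-α. Every vehicle granulocyte library was above every promyelocyte library of either treatment, whereas the TNF-α granulocytes ranged over both. In promyelocytes MEIS1 was too low to be tested. In granulocytes its TNF-α difference was −0.59 on the log2 scale (95% interval −1.68 to 0.50, adjusted p = 0.378 by edgeR). It ran from −0.25 without TNF-α replicate 1 to −1.60 without TNF-α replicate 2, and was called in none of the fits that left out a library.

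MEIS3, the third MEIS paralog, had 1 read pair in the 6 promyelocyte libraries together. In granulocytes it had 0, 5 and 7 with vehicle and 7, 2 and 1 with TNF-α. The granulocyte groups overlapped fully, and the gene was too low to be tested in any comparison. Its processed copies MEIS3P1 and MEIS3P2, looked at after the values of MEIS3 were seen, had at most 1 read pair in a library.

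PBX2 and PBX3, partners of both HOX and MEIS proteins, rose with TNF-α in granulocytes. PBX2 lies at chr6:32184741-32190186 on the minus strand and PBX3 at chr9:125747345-125967377 on the plus strand (hg38). Their promoter windows are shown to stand beside those of MEIS2, as these are the members that were called with TNF-α. Capitals mark the same motifs as above.
PBX2, chr6:32190153-32190452, minus strand: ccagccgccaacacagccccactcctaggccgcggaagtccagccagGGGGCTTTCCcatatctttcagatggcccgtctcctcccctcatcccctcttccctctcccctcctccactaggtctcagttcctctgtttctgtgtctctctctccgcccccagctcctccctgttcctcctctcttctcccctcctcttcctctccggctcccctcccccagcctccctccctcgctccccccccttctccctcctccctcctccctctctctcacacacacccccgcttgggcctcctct
PBX3, chr9:125747933-125748232, plus strand: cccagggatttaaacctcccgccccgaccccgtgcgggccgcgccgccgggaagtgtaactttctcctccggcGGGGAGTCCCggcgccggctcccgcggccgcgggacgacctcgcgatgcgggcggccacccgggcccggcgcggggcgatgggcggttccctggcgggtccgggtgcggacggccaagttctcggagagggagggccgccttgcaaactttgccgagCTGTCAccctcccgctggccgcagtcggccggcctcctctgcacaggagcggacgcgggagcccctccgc
PBX2 held a single match to the NF-κB consensus. PBX3 held a single stretch that matched on both strands, and a TGACAG on the minus strand. None of the other windows of the members held any of the 4 motifs, apart from the second MEIS2 window. The windows follow RefSeq's start sites, and 8 of the 12, those of MEIS2 and PBX3 included, lie inside the gene's span in the count table, so other start sites were not searched.

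PBX3 was the member with the largest called response. In vehicle granulocytes it measured 33.0, 32.5 and 34.6 CPM, and with TNF-α 51.2, 49.1 and 44.6 CPM. All TNF-α libraries were above all vehicle libraries, and by more than the spread within either group. Non-overlapping groups were found for 55.1% of all genes in granulocytes. The log2 fold change was 0.52 ± 0.0616 (SE, 95% interval 0.39 to 0.64, adjusted p = 5.14e-09 by edgeR), a rise of 1.43-fold. With PBX2 and MEIS2 it made 3 of 5 tested members called in granulocytes, 2 higher and 1 lower, where 49.2% of all 16944 genes were called, 24.4% being higher and 24.8% lower, so the members' share was close to the background.

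In promyelocytes PBX3 measured 21.4, 21.2 and 19.2 CPM with vehicle and 23.3, 22.4 and 22.6 with TNF-α. The groups did not overlap, as for 30.9% of all genes, but the gap was small beside the spread of the vehicle libraries. The log2 fold change of 0.17 (95% interval 0.01 to 0.33) was not called (adjusted p = 0.166 by edgeR). The response of PBX3 was larger in granulocytes by 0.39 ± 0.0977 on the log2 scale (SE, adjusted p = 0.00402 by edgeR). The 4 groups of PBX3 stood apart without overlap, in the order TNF-α granulocytes, vehicle granulocytes, TNF-α promyelocytes and vehicle promyelocytes.

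PBX2 measured 90.5, 89.7 and 87.7 CPM in vehicle granulocytes and 113, 105 and 99.5 with TNF-α. The TNF-α libraries were all higher, with a wider spread than the vehicle libraries. The log2 fold change was 0.23 ± 0.0519 (SE, adjusted p = 0.000283 by edgeR), and it was 0.15 with an adjusted p of 0.00428 once each library's dependence on GC content and gene length was removed. In promyelocytes PBX2 measured 60.7, 57.5 and 59.7 CPM with vehicle and 60.1, 61.4 and 62.1 with TNF-α, and the groups overlapped. The log2 fold change there was 0.07 (95% interval −0.05 to 0.19, adjusted p = 0.494 by edgeR).

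The difference between the PBX2 responses was 0.20 (95% interval 0.04 to 0.36) and was not called (adjusted p = 0.0617 by edgeR). Without TNF-α granulocyte replicate 3 it passed (0.24, adjusted p = 0.0313), and with the GC and length dependence removed it was 0.04 (adjusted p = 0.716, both by edgeR). A neighbouring gene, ENSG00000273333, overlaps 654 bases, or 15.1%, of PBX2's exons, and read pairs on shared bases were left out of both genes by the authors' counting. Only 8 of that gene's 662 exon bases were its own. Its count of at most 1 read pair in a library thus does not show how many pairs were left out. PBX2P1, a processed copy looked at after the values were seen, had 4 to 14 read pairs against at least 1562 for PBX2.

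PBX4, a paralog best known from testis, had 17, 7 and 16 read pairs in vehicle promyelocytes and 6, 13 and 12 with TNF-α, and these groups overlapped. In granulocytes it had 5, 4 and 1 with vehicle and 10, 4 and 2 with TNF-α, which also overlapped. Its TNF-α difference in promyelocytes was −0.33 on the log2 scale (95% interval −1.27 to 0.62, adjusted p = 0.693 by edgeR) and ran from −0.60 without vehicle replicate 2 to −0.10 without TNF-α replicate 1. In granulocytes it was too low to be tested.

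**Figure D2:**
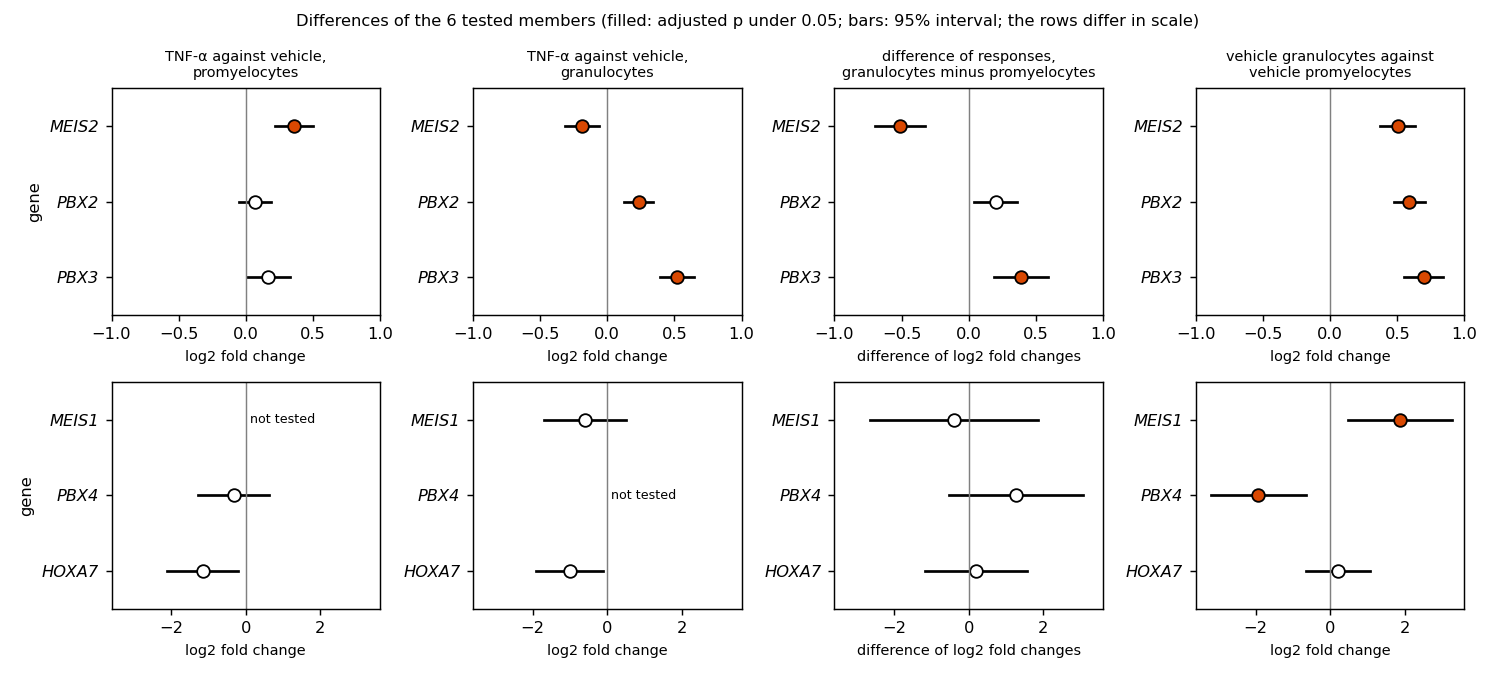
Log2 fold changes (x axis) of the 6 members that could be tested, in 4 comparisons from left to right; points are estimates, bars 95% intervals, filled points have an adjusted p under 0.05, and the lower row has a wider scale. MEIS2 is filled on opposite sides of 0 in promyelocytes (0.36) and granulocytes (−0.19), and the intervals of MEIS1, PBX4 and HOXA7 are several times wider than those of the upper row.

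Between vehicle granulocytes and vehicle promyelocytes, 72.0% of all genes were called, 35.7% being higher in granulocytes and 36.3% lower. MEIS2, PBX2 and PBX3, which had at least 555 read pairs in either cell type, were higher in granulocytes. PBX3 was higher by 0.70 ± 0.0697 on the log2 scale (SE, adjusted p = 1.03e-09 by edgeR), PBX2 by 0.59 ± 0.0553 and MEIS2 by 0.50 ± 0.0639. None of these vehicle groups overlapped, as for 74.4% of all genes. MEIS1 and PBX4 passed the filter on low counts through the cell type in which they were higher, so a difference was a condition of their being tested, and their calls are not counted as support. MEIS1 was higher by 1.87 ± 0.673 (adjusted p = 0.0153 by edgeR), on 8 against 30 read pairs. That call was lost without vehicle promyelocyte replicate 1 (adjusted p = 0.0620), without vehicle granulocyte replicate 2 (adjusted p = 0.0613) and with DESeq2 (adjusted p = 0.0554). PBX4 was the member that was lower, with a log2 fold change of −1.93 ± 0.617 (SE, adjusted p = 0.00694 by edgeR), on 40 against 10 read pairs, and it was not called without vehicle granulocyte replicate 3 (−1.48, adjusted p = 0.0522). HOXA7 differed by 0.20 (95% interval −0.65 to 1.06, adjusted p = 0.670 by edgeR).

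HOXA7, HOXA9 and HOXA10 lie next to each other in the HOXA cluster on the minus strand of chromosome 7, HOXA7 at chr7:27153716-27157936, HOXA9 at chr7:27162435-27175180 and HOXA10 at chr7:27170591-27180261 (hg38). HOXA9, the HOX gene most tied to acute myeloid leukemia, had 0 read pairs in all 12 libraries, 0 of 331074647, which allows a level of up to 0.00906 CPM. HOXA10, its neighbour and partner in progenitors, had 1, 1 and 0 read pairs in TNF-α granulocytes and 0 in the other 9 libraries. At this depth the difference between 2 read pairs and 0 was not detectable.

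Overlapping annotation touched only part of both genes. A readthrough gene, ENSG00000257184, overlaps 397 bases (13.1%) of HOXA9's exons and 368 bases (9.93%) of HOXA10's, and the microRNA gene MIR196B another 84 bases of HOXA9's. The readthrough gene and MIR196B had 0 exon bases of their own. Their count of 0 in all libraries thus followed from the counting and does not show whether reads fell there. For HOXA9 2548 of 3029 exon bases, and for HOXA10 3339 of 3707, belonged to no other gene on the strand. A pair on shared bases would have been dropped by the counting.

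HOXA7, the third member of the cluster and a frequent companion of HOXA9 in leukemia, was low but present. It had 16, 23 and 11 read pairs in vehicle promyelocytes and 5, 8 and 9 with TNF-α. Every TNF-α promyelocyte library was below every vehicle library, and groups did not overlap for 30.9% of all genes. In promyelocytes HOXA7 passed the filter on low counts only through the vehicle libraries, where it was higher. Its being tested thus depended on the higher group, and the direction is not counted as support. The difference of −1.15 on the log2 scale (95% interval −2.10 to −0.20) did not pass the adjustment (adjusted p = 0.102 by edgeR).

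In granulocytes HOXA7 had 11, 25 and 22 read pairs with vehicle and 12, 7 and 5 with TNF-α. The first library of either group fell among those of the other. HOXA7 again passed the filter on low counts through the vehicle libraries, so the direction is not counted as support here either. The difference of −1.01 (95% interval −1.90 to −0.11, adjusted p = 0.0573 by edgeR) was not called. It passed without vehicle replicate 1 (−1.23, adjusted p = 0.0397), without TNF-α replicate 1 (−1.47, adjusted p = 0.0205) and with the GC and length dependence removed (−1.10, adjusted p = 0.0350), all by edgeR. The responses of HOXA7 in the 2 cell types differed by 0.19 (95% interval −1.18 to 1.56, adjusted p = 0.879 by edgeR), an interval too wide to say that they were alike.

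Other genes of the cluster had reads. HOXA5, beyond HOXA7, had 24 to 45 read pairs in vehicle promyelocytes and 197 to 263 in vehicle granulocytes, and HOXA11, on the far side of HOXA10, had 58 to 182 over all 12 libraries. HOXA9 and HOXA10 thus had almost no reads between HOXA7 and HOXA11, which had some, and HOXA13, the last gene, had at most 1 read pair. HOXA10-AS, which runs against HOXA10, also had at most 1.

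**Figure D3:**
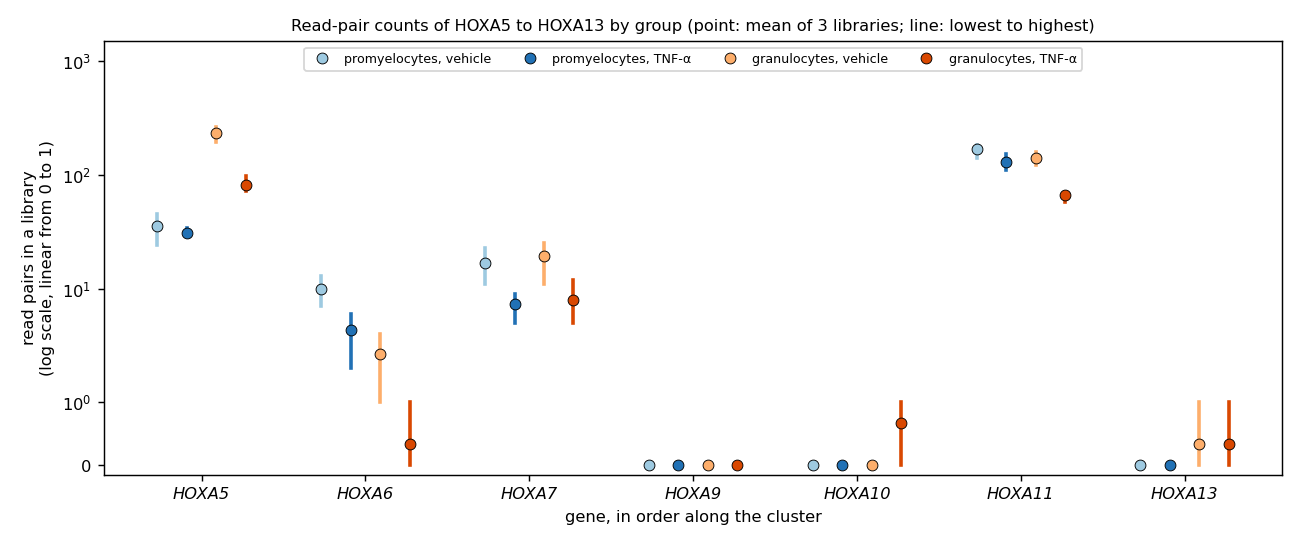
Read pairs in a library (y axis, log scale above 1 and linear below) of HOXA5 to HOXA13 in order along the cluster (x axis), by group; points are means of 3 libraries and lines run from the lowest to the highest. HOXA9 is at 0 in all groups and HOXA10 at no more than 1, between HOXA7 (5 to 25) and HOXA11 (up to 182).

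The other 15 listed genes of the HOXA cluster found in the table, among them early patterning genes and long noncoding RNAs, were mostly too low to test. In promyelocytes 0 of 5 tested genes were called by edgeR and 0 by DESeq2, and 1 was lower at an unadjusted p under 0.05, with a median log2 fold change of −0.17 against −0.01 over all genes. In granulocytes 6 of 7 fell with TNF-α by edgeR and 7 by DESeq2, and 0 rose by either tool or at an unadjusted p under 0.05, with a median of −1.09 against 0.00 over all genes, where 24.8% of all genes did. HOXA5, a gene of lung and myeloid development, fell by 1.28 on the log2 scale, from 8.19 ± 0.619 to 3.42 ± 0.139 CPM (SD, n = 3), and HOXA11-AS, an antisense RNA, by 1.85. The values of HOXA7 in granulocytes lay in the same direction without being called, with the limit of the low-count filter given above.

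Of the 28 HOXB, HOXC and HOXD genes, 7 were tested in promyelocytes and 11 in granulocytes. With TNF-α, 2 fell in promyelocytes and 7 in granulocytes, where 6.65% and 24.8% of all genes did, and 0 rose by edgeR, by DESeq2 or at an unadjusted p under 0.05. The medians were −0.53 and −0.61. The promyelocyte count was 1 with DESeq2, and the granulocyte count was 4 with DESeq2 and 4 when all libraries shared 1 fit. Some of these genes were low. In granulocytes HOXC5 had 11 to 21 read pairs with vehicle and 3 to 9 with TNF-α, and HOXC13 had 25 to 33 and 3 to 13. They passed the filter on low counts through the vehicle libraries, where they were higher, so their direction is not counted as support. HOXC10, a posterior gene, fell in both, by 0.53 and 0.61 on the log2 scale, and HOXC8, a trunk patterning gene, fell by 0.84 in granulocytes.

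Among the 13 other TALE genes and PBX partners, 1 of 6 tested genes rose and 4 fell in promyelocytes, and 2 of 7 rose and 2 fell in granulocytes, with medians of −0.40 and 0.08. Over all genes 14.8% were called in promyelocytes and 49.2% in granulocytes, so the granulocyte share was near the background. TGIF2, a repressor of the same homeodomain class, rose in both, by 0.25 and 1.05, and its relative TGIF1 fell in both, by 0.84 and 0.42. PBXIP1, which binds PBX proteins and keeps them from DNA, fell in both, by 0.46 and 1.02. IRX3, an Iroquois gene, fell by 0.50 in promyelocytes. IRX5 of the same family was called in opposite directions. It fell by 0.34 in promyelocytes (adjusted p = 0.0448 by edgeR) and rose by 0.52 in granulocytes.

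Genes of the KMT2A, menin and DOT1L complexes, which keep HOXA genes on in leukemia, were all tested. In promyelocytes 2 of 18 rose and 2 fell, and in granulocytes 6 rose and 5 fell, with medians of −0.02 and 0.06. In these fits neither share was far from the 14.8% and 49.2% of all genes called. The promyelocyte count of 4 was 7 with DESeq2 and 8 when all libraries shared 1 fit. The share of all genes called by those fits is not set beside it, so that reading holds for the main fits only. DOT1L, the histone H3 lysine methyltransferase, rose by 0.42 and by 1.77, and MLLT6, a KMT2A fusion partner, by 0.62 and 1.43. AFF1 and MLLT1, of the elongation complex, fell by 0.28 and 0.26 in promyelocytes. MLLT3, their relative, fell by 1.38 and PSIP1, which tethers menin to chromatin, by 0.47 in granulocytes. With TNF-α in granulocytes, AFF1 also went from 322 to 242 CPM on average, and MLLT1 from 66.2 to 69.9. The means in promyelocytes were 11.4 and 10.4 CPM for MLLT3 and 58.5 and 56.1 for PSIP1.

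Genes linked to HOXA9, HOXA10 and MEIS1 as targets were measured in cells where those factors had almost no reads. In promyelocytes 5 of 19 rose and 7 fell, and in granulocytes 6 of 17 rose and 6 fell, with medians of −0.16 and 0.00, where 14.8% and 49.2% of all genes were called. DUSP4, a MAP kinase phosphatase, rose by 3.08 and 1.57, CYBB, the oxidase subunit that HOXA10 is known to repress, rose by 0.96 in promyelocytes, and CDK6, a cell cycle kinase, rose by 0.66 in granulocytes. TRIB2, a pseudokinase, fell by 0.62 and 2.22, ERG by 0.96 in promyelocytes and MYB by 1.65 in granulocytes, both transcription factors of progenitors. A gene given here for 1 cell type could move in the other too. With TNF-α in promyelocytes, MYB went from 465 to 333 CPM on average and CDK6 from 464 to 511. In granulocytes CYBB went from 2108 to 2127 CPM, and ERG had at most 10 read pairs in a library.

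Of the 10 myeloid transcription factors that share sites with HOX and TALE proteins, 2 rose and 5 fell in promyelocytes and 3 rose and 6 fell in granulocytes, with medians of −0.37 and −0.21. Of all genes, 8.15% rose and 6.65% fell in promyelocytes, and 24.4% and 24.8% in granulocytes. STAT5A, a cytokine signal transducer, rose by 1.13 and 2.65. CEBPA and RUNX1, regulators of myeloid commitment, fell by 0.63 and 0.56 in promyelocytes. SPI1, a master regulator of myeloid genes, rose by 0.94 in granulocytes, where GFI1, a repressor that counters HOXA9, fell by 2.21 and MEF2C, known as a cofactor in leukemia, by 1.23. These genes also moved in the cell type not given. In granulocytes CEBPA went from 87.6 to 65.1 CPM on average and RUNX1 from 217 to 191. For promyelocytes the means were 193 and 156 CPM for GFI1 and 118 and 138 for SPI1. MEF2C had at most 27 read pairs in a promyelocyte library.

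The genes whose pattern over the 12 libraries was most like that of a member were sought for the 3 well-expressed members among 11146 genes, by Pearson's r of log2 CPM. As the libraries form 4 groups and share treatments, r is a description. For MEIS2 these were PPWD1 (r = 0.961) and LTN1 (r = 0.949), for PBX2 ARPC2 (r = 0.994) and CEMIP2 (r = 0.994), and for PBX3 LCP1 (r = 0.995) and ST3GAL1 (r = 0.995). The genes most like PBX2 and PBX3 were highest in TNF-α granulocytes, whereas PPWD1 and LTN1, like MEIS2, were highest on average in vehicle granulocytes. They were chosen for likeness over the same libraries, so a shared order of groups follows from the choice. LTN1 overlapped between vehicle (98.5 to 105 CPM) and TNF-α granulocytes (95.1 to 101).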

How the data were processed

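RNA of 12 HL-60/S4 cultures was measured, 3 in each of 4 groups taken from the sample titles. Per the file headers and the study's methods, the authors aligned read pairs to hg38 with STAR 2.5.3a and deposited raw counts per gene from featureCounts 1.5.2 (primary, properly paired, reverse-stranded, GENCODE 27), which left out pairs that overlap several genes. The authors' own tests used DESeq2 1.16.1. Totals and floors were computed from those counts.

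The counts were fitted with edgeR 4.0.16 (R 4.3.3) by the quasi-likelihood test, with TMM scaling, filterByExpr (minimum count 10, total 15) and Benjamini-Hochberg adjustment over all genes tested, at a threshold of 0.05. Each cell type had its own fit of 6 libraries. A fit of all 12 gave the difference of responses, the vehicle comparison and the CPM levels. RPKM used the exon length in the table. The fits were tested on simulated data with known changes. DESeq2 1.42.0 and other settings were run as alternatives.

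All 9 members are named throughout. From each gene list and TNF-α comparison, up to 2 called genes in each direction were named, those with the largest change whose groups did not overlap and whose log2 CPM averaged 1 or more. A gene named for 1 cell type could thus also be called in the other. For members averaging a log2 CPM of 0 or more, the 2 most similar genes were named, together with genes that overlap a member's exons. The members and lists were chosen with earlier results of these data known. Of 16 listed HOXA cluster genes 15 were found by symbol. Promoter windows (9 of 9 members matched) came from RefSeq, GRCh38.p14. Overlapping genes were read from the exon coordinates in the table.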

Additional observations from a re-analysis of the deposited data

Results flagged for a closer look

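The response to TNF-α differed between granulocytes and promyelocytes, by a test of the difference itself over all 12 libraries (edgeR, adjusted p under 0.05), for 2 members and 21 of the 27 other named genes, where 24.0% of all genes differed. The 27 were named for their large changes within a cell type, so their share is not set against that of all genes. Each value is the granulocyte minus the promyelocyte log2 fold change within the fit of all 12 libraries, which was scaled on its own. It therefore need not equal the gap between the fold changes of the separate fits. The median of this difference over all genes was 0.03. MEIS2 had a difference of −0.51 and PBX3 of 0.39. Of the TALE genes and PBX partners, TGIF2 had a difference of 0.83, TGIF1 of 0.46, IRX3 of 0.68, IRX5 of 0.89 and PBXIP1 of −0.52. In the HOXA cluster the difference was −1.37 for HOXA11-AS and −1.07 for HOXA5. Of the KMT2A, menin and DOT1L genes, DOT1L had a difference of 1.39, MLLT6 of 0.85, MLLT1 of 0.36, PSIP1 of −0.39 and MLLT3 of −1.24. Among genes linked to HOXA9, HOXA10 and MEIS1 as targets, it was 0.53 for CDK6, −0.92 for CYBB, −1.16 for MYB, −1.46 for DUSP4 and −1.56 for TRIB2. Of the myeloid factors, STAT5A had a difference of 1.56, SPI1 of 0.73, RUNX1 of 0.39 and GFI1 of −1.88. DUSP4 rose in both cell types, so its difference is one of size, and TGIF1, which fell in both, fell less in granulocytes. PBXIP1 also fell in both, and more in granulocytes, whereas IRX5 was called lower in promyelocytes and higher in granulocytes.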

How the results depend on the processing

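The count of members called stayed within 1.5 times its value in all 30 alternative fits and in all 30 that left out a library. That bound is loose for counts this small. With a library left out, the count was 1 throughout in promyelocytes and 2 to 4 in granulocytes. It was 2 to 3 for the difference of responses and 4 to 5 between the vehicle groups in these fits. Of the single members' calls, MEIS2 in granulocytes, HOXA7 in granulocytes, the PBX2 difference of responses, and MEIS1 and PBX4 between the vehicle groups changed in some, with the values given above. Leaving out a library also turned the sign of uncalled values. The difference of responses ran from −1.41 to 0.21 for MEIS1 and from −0.29 to 0.42 for HOXA7, and the vehicle difference of HOXA7 from −0.028 to 0.55. On the exon length that no other gene covers, PBX2 was at 16.1, 16.6, 24.2 and 28.7 RPKM in vehicle and TNF-α promyelocytes and vehicle and TNF-α granulocytes. At a threshold of 0.01, 1438 in place of 2405 genes were called in promyelocytes and 2843 in place of 4351 for the difference of responses, and without vehicle promyelocyte replicate 2 1598 were called in promyelocytes. Residuals of same-numbered libraries correlated between −0.355 and −0.0337, so the numbers did not pair them. With the replicate number as a block, MEIS2 was at 0.36 in promyelocytes and −0.19 in granulocytes, 1833 and 7721 genes were called, and no member's call changed. Depth limits MEIS1, MEIS3, PBX4 and HOXA7, and for HOXA9 and HOXA10 leaves only an upper limit.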
